A study of Mus musculus with 4 samples.

Results

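Interferon-stimulated genes and the ligand, receptors, transcription factors and nucleic acid sensors that control them were examined in cells lacking Deaf-1 that the study prepared as mammary epithelial cells (MECs). Members were 43 named genes, taken from the series as the probe sets with that single gene symbol in the array annotation, with 1 probe set per gene, that of the highest mean. Of the 43 genes, 41 were measured, by 70 probe sets among 45037, and they are 41 of 18193 genes with a single symbol. Isg15 and Ifi44 had no probe set of their own and were not analysed here.

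The cells came from Deaf-1-/- female mice and were immortalised with a retrovirus encoding papilloma virus oncoproteins. The study's results name a single mouse as the source and its methods name mice, so the clones may share an animal. Clones E1 and C1 were each transduced with a retrovirus encoding Deaf-1 or with the control retrovirus and selected in puromycin for 48 h. There were thus 4 Affymetrix mouse arrays: 2 with Deaf-1 (E1, C1) and 2 with control (E1, C1). All 4 arrays therefore share the loss of endogenous Deaf-1, the viral oncoproteins and the drug selection. Each clone is 1 line, no group was given interferon, and every p-value below rests on 2 arrays against 2. Between the clones it measures only the spread of the 2 arrays of the same line, which carry different retroviruses.

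Type I interferons such as interferon beta bind the receptor of Ifnar1 and Ifnar2, and interferon gamma binds that of Ifngr1 and Ifngr2. Signalling through Janus kinases and STAT proteins, with Stat2 and Irf9 in the complex formed by type I interferon, then drives genes whose promoters hold an interferon-stimulated response element. Epithelial cells and fibroblasts keep many of these genes at a low level without infection and raise them when RNA or DNA sensors such as Ifih1 and Cgas detect viral nucleic acid. Deaf-1 is a DNA-binding transcription factor, and its known target motifs hold the bases TTCG.

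Promoter sequence is shown first for members that hold the core of the interferon-stimulated response element, the element best known in this family. Of the 41 measured genes, 35 had an entry in the RefSeq promoter table (build GRCm38.p6), which covers 250 bases before to 50 after each gene start. The core of the response element was searched on both strands as GAAA, any 2 bases, GAAA, and it was present at 14 of the 35 members (40%), against 3.99% of all 27025 genes in the table. The other 21 members did not hold it within these bases. Windows of 30 bases, chosen among the 14 members with a match, around 8 of these matches are printed below in the direction of the gene, with the core in capitals. TTTC at the ends of the capitals means that the core lies on the opposite strand. The first 3 genes had an unadjusted p under 0.01 between the clones by limma (below), but not an adjusted p under 0.05. The other 5 passed neither threshold.
Stat2: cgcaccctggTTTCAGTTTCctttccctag
Gbp2: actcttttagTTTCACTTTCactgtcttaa
Ifit3: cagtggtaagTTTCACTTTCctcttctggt
Ifit1: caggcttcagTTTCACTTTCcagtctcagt
Rsad2: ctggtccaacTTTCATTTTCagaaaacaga
Bst2: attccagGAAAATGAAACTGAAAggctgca
Gbp3: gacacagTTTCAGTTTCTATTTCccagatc
Irgm1: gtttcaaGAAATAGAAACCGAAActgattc

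The windows lie at chr10:128270266-128270295 (plus strand) for Stat2, chr3:142620594-142620623 (plus) for Gbp2, chr19:34583363-34583392 (plus) for Ifit3, chr19:34640775-34640804 (plus) for Ifit1, chr12:26456553-26456582 (minus) for Rsad2, chr8:71537580-71537609 (minus) for Bst2, chr3:142559992-142560021 (plus) for Gbp3 and chr11:48871428-48871457 (minus) for Irgm1. Bst2, Gbp3 and Irgm1 hold 2 overlapping cores, and Ifit1 and Ifit3 each hold a second core outside the window. The core began at -59 from the gene start in Gbp2, at -156 in Ifit3 and at -222 in Stat2. Of the 8 members that passed the unadjusted threshold between the clones, Dhx58 and Parp14 had no promoter entry. Stat2, Gbp2 and Ifit3 held the core, and Ifnar2, Ifngr2 and Xaf1 did not within these bases. The gamma-activated site, searched as TTC, any 3 bases, GAA, was present at 12 of the 35 members (34.3%) and at 9.55% of all genes, and it overlapped the response element core in 1 member promoter. TTCG, on either strand, was present at 23 of the 35 (65.7%) and at 47.7% of all genes. These matches are descriptions of the letters and no binding was measured.

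The level of the introduced gene followed the labels. Deaf1 read 6.25 (E1) and 6.73 (C1) on the log2 scale in the Deaf-1 arrays, against 4.91 and 5.01 in the control arrays. A background level of 3.83 was set as the 95th percentile of the mean values of 44 olfactory receptor probe sets, which these cells would not be expected to transcribe. The control arrays of the null cells thus also read above background for the Deaf1 probe set. The cell type named by the study was checked on markers. Only 4 of 10 epithelial markers (Krt19, Krt5, Epcam and Cldn3) lay above background. Among them Epcam read 6.04 and 5.81 in E1 (Deaf-1, control), against 5.98 and 6.33 in C1. Cldn3 read 5.88 and 5.32 in E1, against 5.19 and 5.56 in C1. The means of Krt8, Krt18, Krt14, Cdh1, Cldn4 and Elf5 lay below background (Krt8 read 4.01 and 3.84 in E1, against 3.46 and 3.57 in C1). All 9 fibroblast and mesenchymal markers lay above it, among them Col1a1 at 12.82 and 12.76 in E1 (Deaf-1, control), against 12.55 and 12.49 in C1. Most of these values go against the epithelial label. The 4 epithelial markers above background are the exceptions, and Krt19 and Krt5 among them had means of only 4.52 and 4.56. Some leukocyte markers, given below, had similar means, so such low values do not speak for a cell type. The cells are called by their clone names below. Between the clones 3 of the 9 mesenchymal markers passed at an adjusted p under 0.05 (limma), and their part in the differences between the clones was not tested. Lum, a matrix proteoglycan, read 3.57 and 4.26 in E1 (Deaf-1, control), against 6.94 and 6.52 in C1, and was the one with an array below background. Pdgfrb and Vim were higher in E1 by 0.83 and 0.62. Of the leukocyte markers 3 of 10 had a mean above background (Csf1r at 6.08, Cd3e at 4.43 and Fcer1g at 4.35), with Ptprc below it. Of the endothelial markers 2 of 4 did (Tek at 6.97 and Kdr at 4.21). Means above background were thus found among the markers of every type listed. In such bulk RNA, fewer cells of a type and less RNA per cell cannot be told apart.

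Of the 41 measured members, 37 had a mean above background. Interferon beta itself (Ifnb1) read between 2.89 and 3.42 on the 4 arrays, below the background level on each. Also below it in mean were Irf8, a factor of the myeloid and lymphoid lineages (3.11 to 3.42), Mx1, a dynamin-like antiviral GTPase (2.40 to 2.80), and Socs1, a feedback inhibitor of Janus kinases (3.39 to 3.85). The other members read between 3.80 and 8.64, and they include the receptors of both interferon types, all 5 sensors and 7 of the 8 transcription factors.

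**Figure D1:**
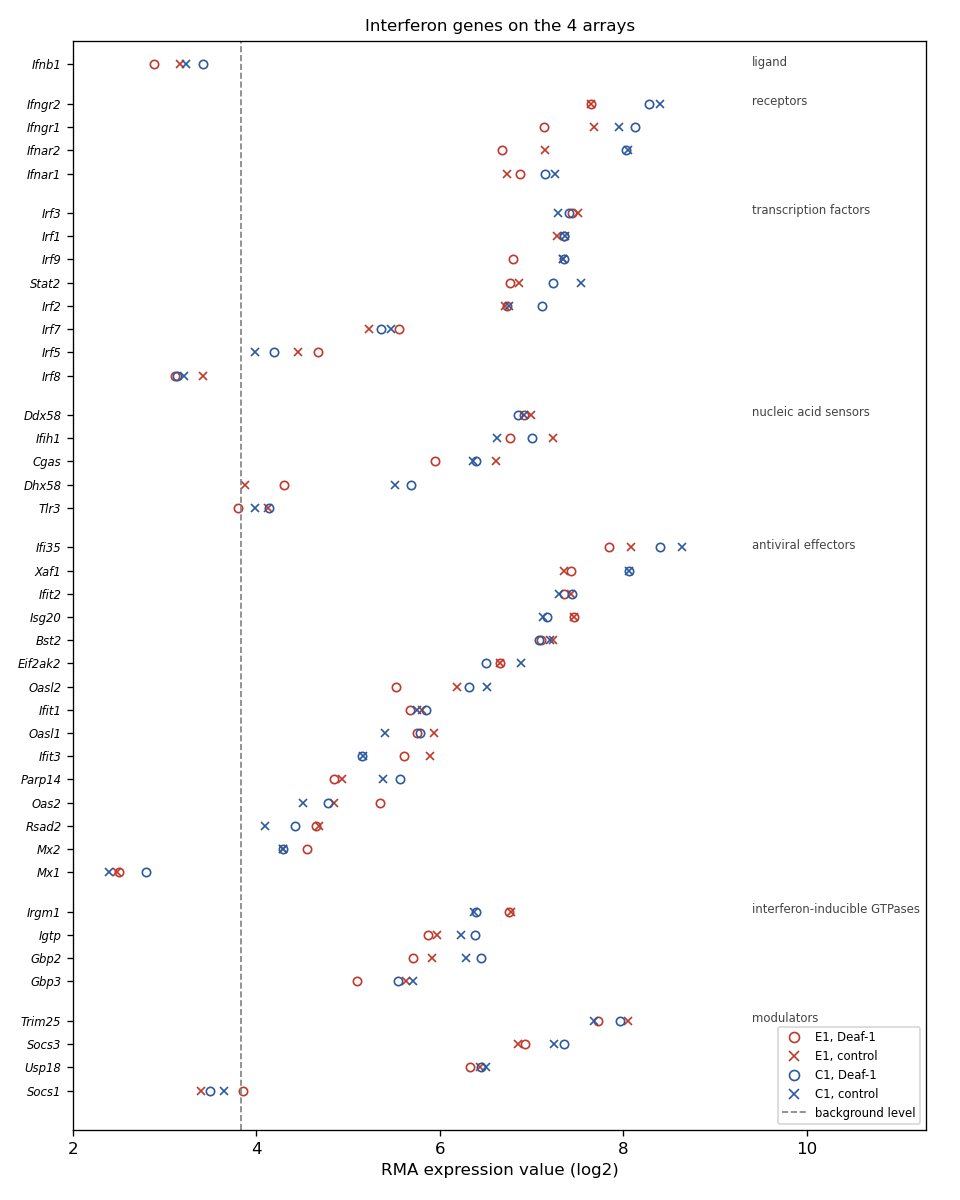
RMA expression values (log2, x axis) of the 41 measured interferon genes, in rows by role, on the 4 arrays: circles are Deaf-1 arrays and crosses control arrays, red for clone E1 and blue for clone C1. The dashed line is the background level of 3.83; 37 genes have a mean to the right of it, and for Dhx58, Ifnar2, Ifngr2 and Xaf1 both red symbols lie left of both blue ones.

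The question of the study was which genes follow Deaf-1 when it is returned to null cells. For the interferon genes none passed the test. Of 41 members, 0 had an unadjusted p under 0.01 by limma, 0 had one under 0.05, and 0 had an adjusted p under 0.05. Both of the first counts were also 0 with clone as a block. The background of such calls was as low: 5 of 45037 probe sets (0.0111%) had an unadjusted p under 0.01, 3 of the 11730 genes above background (0.0256%) did, and 35 of these (0.298%) had one under 0.05. With 0 members called against such shares, the list cannot be told from the rest of the array by its calls.

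The log2 changes of the members (Deaf-1 minus control, mean of the clones) ran from -0.43 for Oasl2 to 0.39 for Oas2, with a median of -0.016, against -0.0068 over all genes and -0.018 over genes above background. The sign of so small a median was not fixed: it was 0.010 after a further quantile normalization and 0.018 after cyclic loess. Both clones were higher with Deaf-1 for 8 members and lower for 11, and the clones moved in opposite directions for 22 (53.7%), against 60.8% of all genes. In clone E1, 26 of the 37 members above background were lower with Deaf-1 (70.3%), against 62.1% of genes above background. In clone C1 it was 14 of 37 (37.8%), against 44.3%.

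The 6 members above background with the largest moderated t in the fit without a block are given with their tests, although none passed. With clone as a block (limma), t was 2.56 for Oas2 (unadjusted p = 0.060), -2.37 for Oasl2 (0.074) and -2.04 for Gbp3 (0.107). In that fit Dhx58 (t = 1.95) and Ifi35 (t = -1.69) ranked above Cgas, Irf9 and Eif2ak2. Gbp3, a guanylate-binding GTPase, read 5.10 (E1) and 5.54 (C1) with Deaf-1, against 5.63 and 5.70 with control, a change of -0.34 ± 0.21 (SE, t = -1.67, adjusted p = 1 by limma). Its groups did not overlap, and clone E1 with Deaf-1 stood lowest. Oas2, a 2'-5' oligoadenylate synthetase that activates RNase L, read 5.35 (E1) and 4.78 (C1) with Deaf-1, against 4.85 and 4.51 with control (0.39 ± 0.26, SE, t = 1.50, adjusted p = 1). The groups overlapped because E1 was the higher clone under both retroviruses. Cgas, the DNA sensor that makes the messenger cyclic GMP-AMP, read 5.95 (E1) and 6.39 (C1) with Deaf-1, against 6.61 and 6.37 with control (-0.32 ± 0.22, SE, t = -1.45, adjusted p = 1). Only E1 moved, and a second Cgas probe set changed by 0.064 on average.

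Oasl2, an oligoadenylate synthetase-like protein, read 5.52 (E1) and 6.32 (C1) with Deaf-1, against 6.18 and 6.52 with control (-0.43 ± 0.32, SE, t = -1.34, adjusted p = 1). Both clones were lower with Deaf-1 but the groups overlapped. Irf9, the DNA-binding partner of Stat2, read 6.80 (E1) and 7.35 (C1) with Deaf-1, against 7.34 and 7.34 with control (-0.27 ± 0.23, SE, t = -1.16, adjusted p = 1). That change came from a single array: without the Deaf-1 array of E1 it was 0.0094. Eif2ak2, the kinase PKR that stops translation on double-stranded RNA, read 6.66 (E1) and 6.50 (C1) with Deaf-1, against 6.65 and 6.88 with control (-0.19 ± 0.17, SE, t = -1.13, adjusted p = 1). Here it was clone C1 that was lower, and 2 further Eif2ak2 probe sets changed by 0.032 and -0.047.

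Per clone, with 1 array per retrovirus and no test, a log2 change of 0.3 was used to describe the members above background. In clone E1, 9 of 37 fell short of control by 0.3 or more (24.3%), against 17% of genes above background: Ifnar2, Ifngr1, Irf9, Ifih1, Tlr3, Cgas, Oasl2, Gbp3 and Trim25. In the same clone 3 exceeded control by as much (8.11%, background 9.88%): Irf7, Dhx58 and Oas2. In clone C1, Stat2 and Eif2ak2 were lower by 0.3 or more (2 of 37, 5.41%, background 7.17%), and Irf2, Ifih1, Oasl1 and Rsad2 were higher by as much (4 of 37, 10.8%, background 11.4%). The lists of the clones share only Ifih1, the RNA sensor MDA5, and there the directions were opposite: 6.76 with Deaf-1 against 7.23 with control in E1 (-0.47), and 7.00 with Deaf-1 against 6.62 with control in C1 (0.38).

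**Figure D2:**
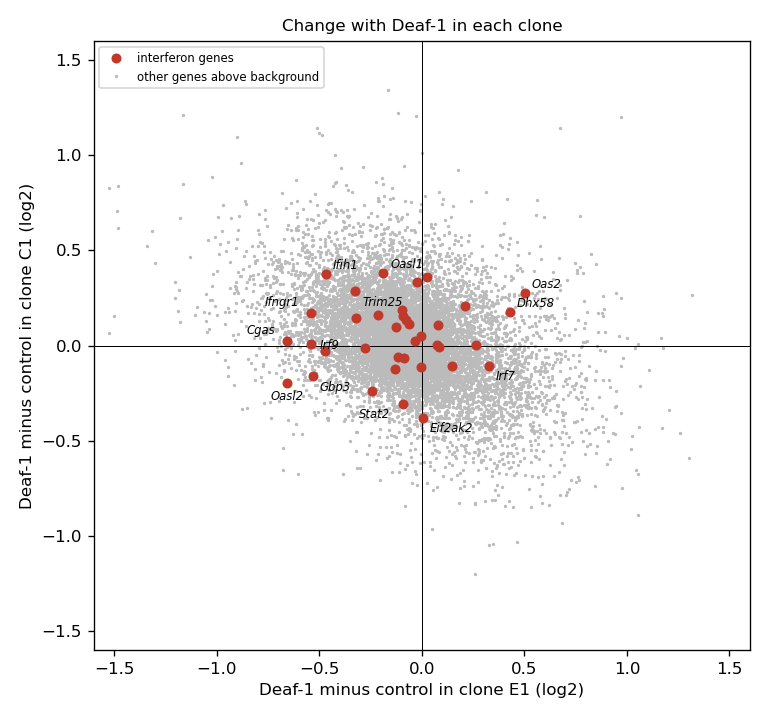
Log2 change with Deaf-1 in clone E1 (x axis) and in clone C1 (y axis) for the 37 interferon genes above background (red) and the other genes above background (grey, 3 genes lie outside the axes). The red points lie within the grey cloud; Oas2 is positive in both clones, Oasl2 and Gbp3 are negative in both, and Ifih1 is negative in E1 and positive in C1.

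The clones themselves differed more than the retroviruses did. Clone E1 was lower than clone C1 for 7 members at an unadjusted p under 0.01 (Dhx58, Ifnar2, Ifngr2, Xaf1, Parp14, Gbp2 and Stat2) and higher for 1 (Ifit3). At an adjusted p under 0.05 (limma) 4 members passed, Dhx58, Ifnar2, Ifngr2 and Xaf1, and all 4 were lower in E1. Of the genes above background, 1118 (9.53%) were lower and 1002 (8.54%) higher at the unadjusted threshold, and 581 (4.95%) were lower and 598 (5.1%) higher at the adjusted one. Against this, 18.9% of the members above background were lower and 2.70% higher at the unadjusted threshold, and 10.8% were lower at the adjusted one. The median difference of the members (E1 minus C1) was -0.092, with -0.24 between the Deaf-1 arrays and -0.047 between the control arrays. Over all genes it was 0.016, and over genes above background -0.015.

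With the retrovirus as a block, 4 members had an unadjusted p under 0.01 (Ifnar2, Ifngr2, Dhx58 and Xaf1) and 0 an adjusted p under 0.05. The block leaves 1 residual degree of freedom. The whole array lost calls in the same way, to 2425 probe sets at the unadjusted and 49 at the adjusted threshold, against 4346 and 2306 without the block. Leaving out an array left 1 member at the unadjusted threshold without control C1, 2 without Deaf-1 C1, 4 without Deaf-1 E1 and 4 without control E1, and 0 at the adjusted threshold each time. In each of these fits 1 clone has a single array, which is assumed to vary like the 2 arrays of the other clone. The values of both clones did not overlap for 23 of the 37 members above background, beside 62% of all genes above background, so that the absence of overlap was usual here.

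Dhx58, the RNA sensor LGP2 that regulates the other RIG-I-like receptors, had the largest difference. It read 4.30 and 3.87 in clone E1 (Deaf-1, control), against 5.68 and 5.51 in clone C1, which is 2.84-fold lower (-1.51 ± 0.18, SE, t = -8.34, adjusted p = 0.0152 by limma, 0.0824 with the retrovirus block). The E1 arrays stood close to the background level of 3.83. A second Dhx58 probe set, below background in mean, differed by -0.74 (adjusted p = 0.0307), and another, also below background, by -0.0035. The related sensors did not pass the test: Ifih1 (MDA5) read 6.76 and 7.23 in E1, against 7.00 and 6.62 in C1, and Ddx58 (RIG-I) read 6.91 and 7.00 in E1, against 6.85 and 6.92 in C1. Tlr3, the endosomal receptor for double-stranded RNA, read 3.80 and 4.12 in E1, against 4.13 and 3.98 in C1, and Cgas read 5.95 and 6.61 in E1, against 6.39 and 6.37 in C1. Of the 5 sensors, 1 thus passed the test between the clones.

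Among the receptors all 4 chains read lower in E1, with a median difference of -0.66, and 2 of them passed. Ifnar2, the chain of the type I receptor that binds interferon tightly, read 6.68 and 7.15 in clone E1 (Deaf-1, control), against 8.03 and 8.05 in clone C1, 2.18-fold lower (-1.13 ± 0.18, SE, t = -6.18, adjusted p = 0.0297; 0.131 with the block). A second Ifnar2 probe set differed by -1.14 (adjusted p = 0.0262) and another by -0.38. Ifngr2, the signalling chain of the interferon gamma receptor, read 7.64 and 7.65 in E1, against 8.28 and 8.39 in C1, 1.62-fold lower (-0.69 ± 0.12, SE, t = -5.61, adjusted p = 0.0383; 0.169 with the block). Its other probe set differed by -0.38. Ifnar1, the partner chain of Ifnar2, read 6.88 and 6.73 in E1, against 7.15 and 7.25 in C1. Ifngr1, the ligand-binding chain for interferon gamma, read 7.14 and 7.68 in E1, against 8.12 and 7.95 in C1. Neither passed, though in both genes the clones did not overlap.

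Of the transcription factors only Stat2, which carries the activation domain of the type I complex, passed the unadjusted threshold. It read 6.77 and 6.86 in E1 (Deaf-1, control), against 7.23 and 7.54 in C1, 1.49-fold lower (-0.57 ± 0.15, SE, t = -3.76, adjusted p = 0.102 by limma; 0.227 with the block), and its second probe set differed by -0.84 (adjusted p = 0.0272). Irf9 read 6.80 and 7.34 in E1, against 7.35 and 7.34 in C1, so that only the Deaf-1 array of E1 stood apart. Irf3, the factor activated by the sensors, read 7.44 and 7.51 in E1, against 7.40 and 7.29 in C1. Irf1, an activator induced by interferon gamma, read 7.36 and 7.27 in E1, against 7.35 and 7.36 in C1. Both were nearly level between the clones. Irf2, an antagonist of Irf1, read 6.73 and 6.71 in E1, against 7.12 and 6.76 in C1. Irf7, the amplifier of the type I response, read 5.55 and 5.23 in E1, against 5.36 and 5.47 in C1. Irf5 read 4.67 and 4.45 in E1, against 4.20 and 3.99 in C1, with both E1 values above both C1 values, but a second Irf5 probe set differed by -0.57.

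Among the antiviral effectors Xaf1, a pro-apoptotic binding partner of inhibitor of apoptosis proteins, read 7.43 and 7.36 in E1 (Deaf-1, control), against 8.06 and 8.06 in C1, 1.59-fold lower (-0.67 ± 0.12, SE, t = -5.51, adjusted p = 0.0399; 0.176 with the block). Its second probe set differed by -0.55 (adjusted p = 0.0647). Parp14, a mono-ADP-ribosyltransferase, read 4.84 and 4.94 in E1, against 5.57 and 5.38 in C1 (-0.59 ± 0.13, SE, t = -4.39, adjusted p = 0.0701; 0.232 with the block). A second Parp14 probe set, below background, differed by 0.19. Ifit3, a tetratricopeptide protein that supports RNA recognition by Ifit1 in human cells, was the member that went the other way, with 5.61 and 5.89 in E1, against 5.15 and 5.16 in C1, 1.52-fold higher (0.60 ± 0.14, SE, t = 4.15, adjusted p = 0.0805; 0.221 with the block). Its neighbours of the same family were level: Ifit1 read 5.68 and 5.80 in E1, against 5.84 and 5.75 in C1, and Ifit2 read 7.35 and 7.43 in E1, against 7.43 and 7.30 in C1.

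The remaining effectors did not pass the test. Ifi35, a leucine zipper protein, read 7.84 and 8.08 in E1, against 8.40 and 8.64 in C1. Oasl2 read 5.52 and 6.18 in E1, against 6.32 and 6.52 in C1. In both genes E1 stood below C1 on every array. Higher in E1 on both arrays were Isg20, an exonuclease (7.46 and 7.46 in E1, against 7.17 and 7.12 in C1), Oas2 (5.35 and 4.85 in E1, against 4.78 and 4.51 in C1) and Rsad2, the radical SAM enzyme viperin (4.65 and 4.68 in E1, against 4.42 and 4.09 in C1). Oasl1 read 5.75 and 5.94 in E1, against 5.79 and 5.40 in C1, and Mx2 read 4.55 and 4.29 in E1, against 4.29 and 4.29 in C1. Bst2, the tetherin that holds budding virus at the membrane, read 7.10 and 7.23 in E1, against 7.08 and 7.20 in C1, and Eif2ak2 read 6.66 and 6.65 in E1, against 6.50 and 6.88 in C1. In these last 4 genes the clones overlapped.

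The interferon-inducible GTPases were divided. Gbp2, a guanylate-binding protein of vacuole defence, read 5.70 and 5.92 in E1 (Deaf-1, control), against 6.45 and 6.29 in C1, 1.47-fold lower (-0.56 ± 0.14, SE, t = -3.90, adjusted p = 0.0937; 0.273 with the block), and a second probe set differed by -0.49. Gbp3 read 5.10 and 5.63 in E1, against 5.54 and 5.70 in C1, and Igtp, an immunity-related GTPase, read 5.87 and 5.96 in E1, against 6.39 and 6.23 in C1. Irgm1, a regulator of the other immunity-related GTPases, had the opposite sign, with 6.75 and 6.78 in E1, against 6.39 and 6.37 in C1. Among the modulators, Socs3, an inhibitor of cytokine receptors, read 6.93 and 6.86 in E1, against 7.35 and 7.24 in C1. Usp18, which removes Isg15 from proteins and blocks the type I receptor, read 6.32 and 6.44 in E1, against 6.44 and 6.50 in C1, and Trim25, a ubiquitin ligase of the RNA sensor pathway, read 7.72 and 8.05 in E1, against 7.96 and 7.67 in C1. None of these genes but Gbp2 passed the unadjusted threshold, and none passed the adjusted one.

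**Figure D3:**
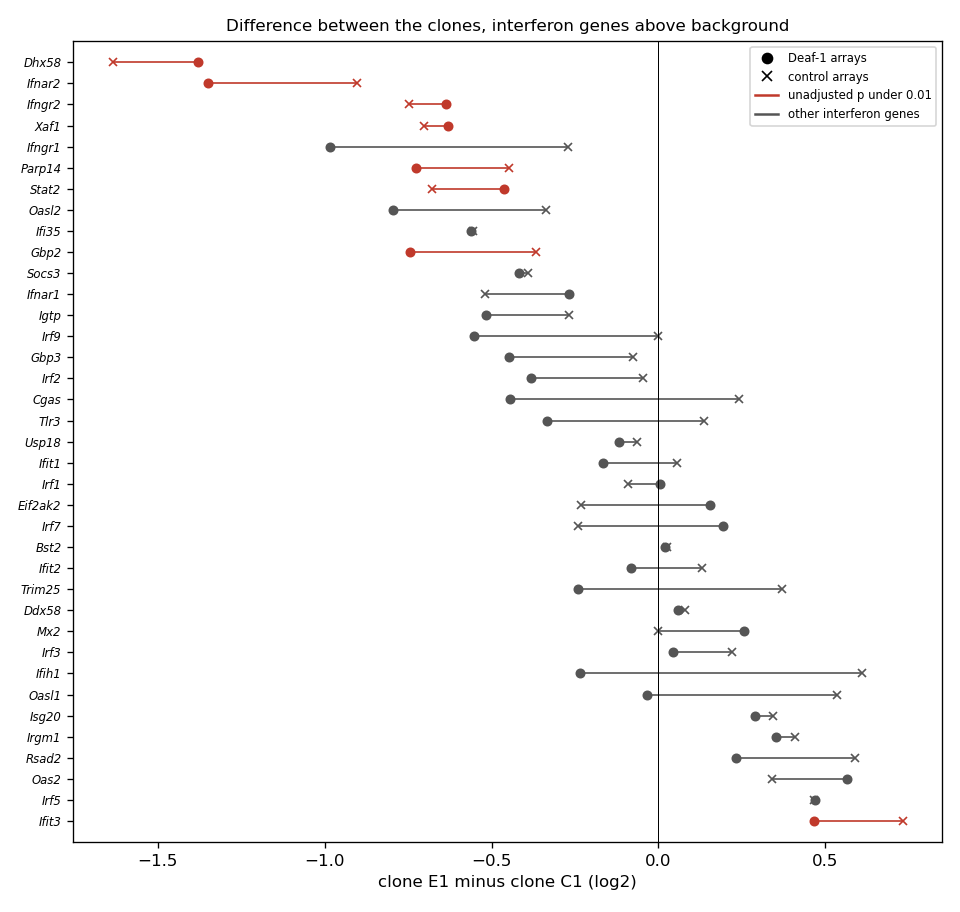
Log2 difference of clone E1 minus clone C1 (x axis) for the 37 interferon genes above background, sorted by their mean difference, between the Deaf-1 arrays (circles) and between the control arrays (crosses). Red marks an unadjusted p under 0.01; Dhx58 is lowest at -1.51 on average and Ifit3 highest at 0.60.

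The differences between the clones were also set beside the chromosomes of the genes. Chromosomes were taken from the RefSeq gene table (GRCm38.p6), used for gene order and chromosome only. Medians and shares per chromosome cover its protein-coding genes above background. The median difference was lowest on chromosome 10 (-0.51, 560 genes) and chromosome 16 (-0.47, 353 genes), and the next lowest was -0.14 on chromosome 19. It was highest on chromosome 1 (0.49, 640 genes), which holds none of the measured members. Both pairs of arrays had the low medians: on chromosome 10 -0.59 between the Deaf-1 arrays and -0.48 between the control arrays, and on chromosome 16 -0.57 and -0.36. On chromosome 16, 84.4% of genes read lower in E1, and on chromosome 10 86.1% did. The look at chromosomes was taken after the values of the members were seen.

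Of the 41 members, 9 lie on chromosomes 10 and 16 (Stat2, Ifngr1, Ifnar1, Ifnar2, Ifngr2, Parp14, Mx1, Mx2 and Socs1). They had a median difference of -0.57, and 4 of the 7 members that were lower at the unadjusted threshold were among them. Of the protein-coding genes above background, 46.6% on chromosome 10 and 38.2% on chromosome 16 were lower at that threshold. On no other chromosome did the share exceed 11.2% (chromosome 8). Such calls were thus usual on chromosomes 10 and 16, and the count is no result about the members. The 32 members on other chromosomes had a median difference of -0.041, with 3 lower (Dhx58, Xaf1 and Gbp2) and 1 higher (Ifit3). Relative to the median of its own chromosome, the difference was -0.060 for Stat2, -0.11 for Parp14, -0.22 for Ifngr2 and -0.65 for Ifnar2. For the genes elsewhere it was -1.38 for Dhx58, -0.53 for Xaf1, -0.52 for Gbp2 and 0.74 for Ifit3. Stat2, Parp14 and Ifngr2 thus lay within 0.22 of the median of their chromosome, and Ifnar2, Dhx58, Xaf1, Gbp2 and Ifit3 lay 0.5 or more from it. All had been picked by the test between the clones. Where the chromosome median is small, a gene so picked has to lie far from it, so this contrast is no result about the members. It also depends on the probe set: a second Stat2 probe set differed by -0.84, and the other Ifnar2 probe sets by -1.14 and -0.38. DNA copy number was not measured, and the part of the chromosome in these differences was not tested.

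**Figure D4:**
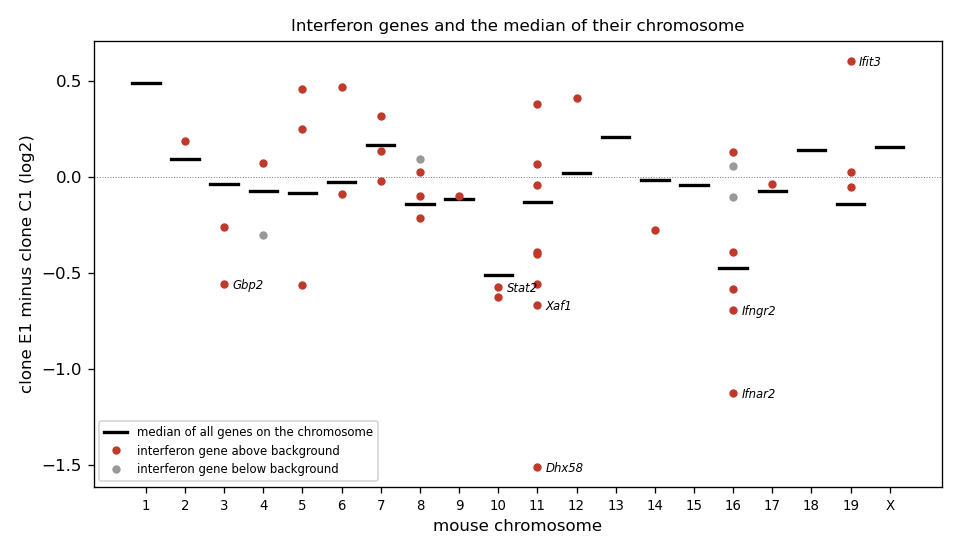
Log2 difference of clone E1 minus clone C1 (y axis) for each of the 41 interferon genes (points) above its mouse chromosome (x axis). Black bars, named all genes in the key, are medians of the protein-coding genes above background of the chromosome. The bars of chromosomes 10 and 16 lie at -0.51 and -0.47, near Stat2 and Ifngr2, while Dhx58, Xaf1, Gbp2 and Ifit3 lie far from the bars of theirs.

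Of the 4 receptor genes, 3 stand side by side on chromosome 16, in the order Ifnar2, Il10rb, Ifnar1, Ifngr2, where Il10rb is a shared chain of the receptors for interleukin-10 and interferon lambda. The 4 genes of this cluster differed by -1.13, -0.79, -0.39 and -0.69 in that order. Neighbours were taken among protein-coding genes above background, so that measured genes below background were passed over. The 15 such genes before the cluster had a median difference of -0.56, with 11 of 15 lower in E1 and 7 lower at the unadjusted threshold. The 15 such genes after it had a median of -0.53, with 14 of 15 lower and 5 at the threshold. Lower values in E1 were thus found in the receptor genes and in most genes around them. Ifnar2, Il10rb and Ifngr2 lay below both neighbour medians, and the neighbours Tiam1 (-1.15) and Paxbp1 (-1.15) were as low as Ifnar2. Within the 30 neighbours Mrap, an accessory protein of the melanocortin receptor, was the exception in size, at 5.62 and 6.07 in E1, against 3.63 and 4.01 in C1.

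**Figure D5:**
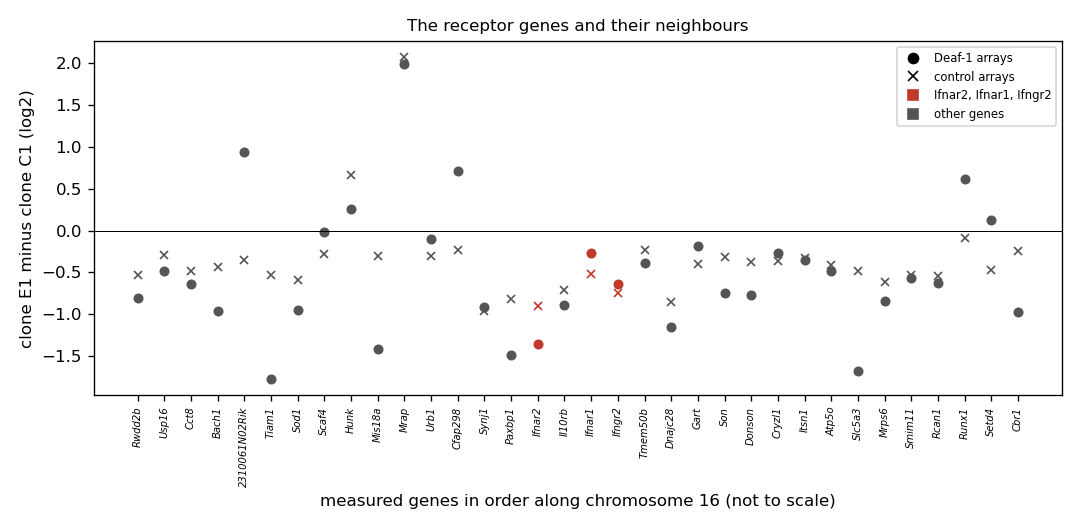
Log2 difference of clone E1 minus clone C1 (y axis) for the interferon receptor genes of chromosome 16 (red), Il10rb and 15 protein-coding genes above background on each side (grey), in gene order and not to scale, between the Deaf-1 arrays (circles) and between the control arrays (crosses). Most symbols lie below 0, the receptor genes among them, and Mrap lies near 2.03.

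Interferon genes outside the 43 were taken from a list of effectors and signalling genes, of which 83 were measured. With Deaf-1, 0 of the 83 passed at an unadjusted p under 0.01 or at an adjusted p under 0.05. Between the clones 15 passed at the unadjusted threshold, 7 higher and 8 lower in E1, and 9 at the adjusted one, 5 higher and 4 lower. Of the 71 above background, 9.86% were higher and 9.86% lower at the unadjusted threshold, near the 8.54% and 9.53% of all genes above background, so that the counts are no result about the list. With the retrovirus block the counts were 8 and 0. The 7 that were higher were all effectors. Slfn5, a Schlafen protein, read 5.01 and 5.18 in E1 (Deaf-1, control), against 3.53 and 3.19 in C1 (adjusted p = 0.00789, 0.0864 with the block). Both C1 values lay below the background level, which limits how well the size of this difference is measured. Slfn8 and Slfn2 were higher by 0.90 and 1.34, and Oas1a, an oligoadenylate synthetase, by 1.02. These 3 Slfn genes lie on chromosome 11, as Dhx58 and Xaf1 do, whose differences had the opposite sign.

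Of the 8 that were lower, 5 were signalling genes. Jak2, a kinase of the interferon gamma receptor, read 7.21 and 7.24 in E1 (Deaf-1, control), against 8.06 and 7.98 in C1 (adjusted p = 0.0263 by limma, 0.145 with the block), and the effector Rtp4 read 5.78 and 5.95 in E1, against 6.69 and 6.94 in C1 (adjusted p = 0.0277, 0.126 with the block). On chromosomes 10 and 16 there were 5 of these 83 genes, all lower in E1, with 3 at the unadjusted threshold. Lower calls were common there, at 46.6% (chromosome 10) and 38.2% (chromosome 16) of protein-coding genes above background.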

How the data were processed

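The authors hybridised total RNA to Affymetrix mouse expression arrays and deposited log2 values made by RMA, 1 per probe set and array. The submitters' processing notes name RMA and limma without versions, and no genome build was named for the annotation. The values ran from 1.75 to 13.63. Of 45101 probe sets, 64 control probe sets were left out. The number of arrays, 4, limits the precision, and saturation could not be read from these values. RMA values are compressed near background, so that differences of dim genes are understated.

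Genes were named from the platform annotation: 34945 probe sets had 1 symbol, 932 several and 9160 none, and 34741 were matched by gene identifier with 0 changes. Members and lists were chosen with earlier results of these data known. Named were all members, with single tests for the 6 members above background with the largest moderated t between retroviruses and for those at an unadjusted p under 0.01 between clones, and at most 6 pathway genes outside the list by the same threshold and t; Mrap and Il10rb were named after their values were seen.

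Linear models with moderated, two-sided tests were fitted for both comparisons (R 4.3.3; limma 3.58.1: lmFit, eBayes), without trend or robust prior, and p-values of all 45037 probe sets were adjusted together by the method of Benjamini and Hochberg. The Deaf-1 fit had clones as replicates, as in the study, and the clone fit had the retrovirus arrays of a clone as replicates. The labels pair arrays by clone, and the deviations of same-clone arrays from their group means correlated at 0.54. The arrays of a clone correlated at 0.994 (C1) and 0.992 (E1), and arrays of different clones at 0.976 to 0.983. An exact permutation test of 2 arrays against 2 cannot give a p below 0.333, so none was used. Alternatives were a block, each array left out, filters on level, other scalings, other choices of probe set and other priors. Figures were drawn with matplotlib.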

Additional observations from a re-analysis of the deposited data

Results flagged for a closer look

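Ifih1 was the member above background whose change with Deaf-1 was at least 0.3 on the log2 scale in both clones with opposite signs. It was -0.468 in clone E1 (6.76 with Deaf-1, against 7.23 with control) and 0.378 in clone C1 (7.00 with Deaf-1, against 6.62 with control). With 1 array per clone and retrovirus, the difference between the clones was not tested. By any amount, 60.8% of all genes and 63.2% of genes above background moved in opposite directions in the clones. The share of genes that meet the rule of 0.3 in both clones was not counted.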

How the results depend on the processing

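For Deaf-1 against control, 0 members and 0 pathway genes passed under every alternative run. The median change of the members ran from -0.12 to 0.040 when an array was left out, the lower value without Deaf-1 C1, and the change of Irf9 ran from -0.54 to 0.0094, the higher value without Deaf-1 E1. Clone as a replicate block changed no call among the members. The array-wide count at an unadjusted p under 0.01 was 11 with that block and 5 without it.

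For clone E1 against clone C1, the 8 members at the unadjusted threshold became 4 with the retrovirus block and 1 to 4 when an array was left out. The 4 at the adjusted threshold became 0 with the block, 0 with any array left out and 10 of 25 (40%) among probe sets with a mean of 6 or more, where 31.4% of the 12386 probe sets passed. The 15 pathway genes became 8 with the block, 6 to 9 when an array was left out and 9 with a mean of 6 or more. Filtering on background together with the replicate block, added after the data were seen, gave 3 members, 1 of them at the adjusted threshold, and 8 pathway genes. Of 117 values of the 8 called members under alternatives, 77 stayed on their side of the threshold, 40 no longer passed and 0 changed sign; among the losses were Gbp2 with median centring, Stat2 with cyclic loess and Parp14 (-0.20) with the mean over its probe sets. The cause of these changes was not tested. Values near the background level of 3.83, as for Dhx58 in clone E1, limit how large a fall can be measured.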
